A study of Mus musculus with 24 samples.

Results

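The RNA levels of 9 genes that encode the nuclear lamins and the proteins of the inner nuclear membrane and its chromatin contacts were examined in mouse embryonic fibroblasts (MEFs) that lack H3K9 methyltransferases (KMTs). The genes were *Lmna*, *Lmnb1*, *Lmnb2*, *Lbr*, *Sun1*, *Sun2*, *Banf1*, *Tmpo* and *Lemd3*. They were taken by symbol and gene identifier from the 47937 genes of the count table as the components of this structure, with earlier results of these data known, and all 9 passed the filter on low counts. RNA sequencing covered 24 cultures in 8 conditions with 3 biological replicates each. WT cells carried a floxed conditional *Eset1* allele and a tamoxifen-inducible Cre recombinase and were not given 4-hydroxytamoxifen (4-OHT), while *E1* cells were the same line after 4-OHT (1 µM), which triggers removal of the floxed *Eset1* exons. *E1 S1S2* cells were in addition mutant for *Suv39h1* and *Suv39h2*, and *6KO1* cells also for *Eset2*, *G9a* and *Glp*, so that all 6 H3K9 KMT genes were targeted. In the second series, *E2* cells were an *Eset2*-mutant clone without 4-OHT, *E1E2* cells the same clone after 4-OHT, *E1E2 G9Gl* cells carried further mutations in *G9a* and *Glp*, and *6KO2* cells further mutations in *Suv39h1* and *Suv39h2*. All conditions share the conditional *Eset1* allele and the Cre transgene, the other genes were mutated with CRISPR/Cas9, and each line is 1 clone, so that a mutation and the history of its clone cannot be told apart. The treatment field of the sample labels names 4-OHT for every culture, and the titles, which mark WT and *E2* as controls, were followed.

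The nuclear lamina is a meshwork of intermediate filaments under the inner nuclear membrane. A-type lamins are spliced from *Lmna*, and B-type lamins come from *Lmnb1* and *Lmnb2*. The lamin B receptor, encoded by *Lbr*, spans the inner membrane, binds B-type lamins and the heterochromatin protein HP1, and together with A-type lamins is known for holding heterochromatin at the nuclear periphery. *Tmpo* encodes the LAP2 proteins and *Lemd3* the protein MAN1, which inhibits SMAD signalling. Both carry a LEM domain, through which they bind the small DNA-bridging protein BAF, encoded by *Banf1*. SUN1 and SUN2 cross the inner membrane and pair with nesprins of the outer membrane to form the LINC complex, which couples the nucleus to the cytoskeleton.

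The libraries held 24736829 to 37419071 counts, of which 19541909 to 31489070 lay on genes. Values below are normalized counts, that is, counts scaled by TMM factors to the average library, and differences were tested in 1 fit of edgeR's quasi-likelihood model to the 24 libraries, two-sided, with Benjamini-Hochberg adjustment over 18565 genes. A gene is said to have risen or fallen where the adjusted p was at most 0.01, and to have been called where its fold change was also at least 2. WT replicate 2 stood apart from the other WT libraries, with a chi-square per gene of up to 59.8 against them, where all other pairs within a condition lay between 2.16 and 22.2. *Setdb1* (*Eset1*) RNA fell by 0.57 on the log2 scale in *E1* (adjusted p = 6.8e-06), but between *E1E2* and *E2* it differed by 0.0070 (adjusted p = 0.99), so that this 4-OHT pair is not told apart by its target RNA. Log2 fold changes of the other 5 KMT genes in *6KO1* ranged from -1.73 for *Suv39h1* to 0.14 for *Suv39h2*. The 8 fibroblast markers had a summed level of 140868 to 170446 normalized counts in WT, 73050 to 79470 in *6KO1* and 98857 to 104744 in *6KO2*, and 8 of 8 fell in *6KO1*, where 30.3% of all genes did. In *E1E2 G9Gl* the sum was 182176 to 195127, above WT, with 3 markers risen and 2 fallen. This sum rests on abundant genes such as *Col1a1*, and 3 defining markers were at or near 0 in *6KO1*. *Thy1* was at 0 to 0.879 normalized counts there (WT mean 199), *Dcn* at 0 to 1.74 (WT mean 36.2) and *Pdgfra* at 1.74 to 5.87 (WT mean 128.9). The sum of 5 leukocyte markers was 88.6 to 106 in WT and 483 to 546 in *6KO1*, with 3 and 2 of them at 0 in these conditions. The sum of 5 epithelial markers went from 30.9 to 50.2 in WT to 423 to 451, that of 4 endothelial markers from 11.9 to 14.9 to 121 to 140, and that of 4 muscle markers from 31.1 to 34.7 to 310 to 333. Only 2 epithelial markers were tested, of which 1 rose and 1 fell in *6KO1*. In *6KO2* the leukocyte sum was 108 to 125, the epithelial 98.3 to 112, the endothelial 100 to 138 and the muscle 87.3 to 112. Fewer cells of a type and less RNA per cell cannot be told apart in bulk RNA. The part of these markers in the results below was not tested.

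Windows of the RefSeq promoter table (GRCm38.p6) were examined for 8 of the 9 genes. *Lmnb1* was left out of this search, so nothing is said here of its promoter. The 250 bases before the first listed start of the 3 genes called lower in *6KO1* and of the gene called higher are shown for the elements that genes moving together may or may not share. They are the windows chr10:91171620-91171869 for *Tmpo*, chr10:80918246-80918495 for *Lmnb2*, chr1:181842402-181842651 for *Lbr* and chr15:79742537-79742786 for *Sun2*, all on the minus strand and written 5′ to 3′. Capitals mark matches on either strand to CCAAT, to the GC box GGGCGG, to TTTGAA (the core of the cell cycle homology region) and to the E2F-type octamers TTTCCCGC, TTTCGCGC, TTTGCCGC and TTTGGCGC. GC boxes in *Sun2* overlap each other.
Tmpo: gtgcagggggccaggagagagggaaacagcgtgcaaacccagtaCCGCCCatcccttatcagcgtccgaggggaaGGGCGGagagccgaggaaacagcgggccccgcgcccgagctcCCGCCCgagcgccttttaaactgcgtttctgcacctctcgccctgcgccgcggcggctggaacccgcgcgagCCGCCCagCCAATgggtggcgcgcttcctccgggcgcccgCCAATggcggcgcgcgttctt
Lmnb2: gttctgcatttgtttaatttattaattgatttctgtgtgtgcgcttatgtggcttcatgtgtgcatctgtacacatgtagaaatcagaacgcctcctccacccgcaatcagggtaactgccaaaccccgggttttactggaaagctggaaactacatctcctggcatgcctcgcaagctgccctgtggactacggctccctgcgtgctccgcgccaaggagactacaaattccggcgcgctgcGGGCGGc
Lbr: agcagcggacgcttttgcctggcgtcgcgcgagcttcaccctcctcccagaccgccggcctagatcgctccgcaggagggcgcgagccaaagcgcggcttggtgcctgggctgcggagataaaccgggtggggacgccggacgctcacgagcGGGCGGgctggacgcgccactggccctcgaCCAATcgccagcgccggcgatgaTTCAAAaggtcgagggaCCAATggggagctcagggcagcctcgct
Sun2: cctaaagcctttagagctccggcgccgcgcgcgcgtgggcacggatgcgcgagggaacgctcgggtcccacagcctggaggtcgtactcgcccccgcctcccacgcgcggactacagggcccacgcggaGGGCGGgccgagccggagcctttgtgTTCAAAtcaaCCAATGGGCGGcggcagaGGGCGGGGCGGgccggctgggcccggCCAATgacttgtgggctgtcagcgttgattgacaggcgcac
*Tmpo*, *Lbr* and *Sun2* each had 2 CCAAT matches, which began at -53 and -21 in *Tmpo*, -68 and -28 in *Lbr* and -85 and -41 in *Sun2*, counted from the start, whereas *Lmnb2* had none in this window. *Tmpo* and *Sun2* each held 4 GC boxes, and *Lmnb2* and *Lbr* 1 each. TTTGAA was matched in *Lbr* and *Sun2*, and none of the 4 windows held an E2F-type octamer. Of the 8 genes, 5 had more than 1 listed window. The second window of *Tmpo* (chr10:91170551-91170800), not shown, held 1 TTTGAA match and 1 E2F-type octamer. Of 32851 promoters in the table, 33.8% held CCAAT, 32.7% a GC box, 16.0% TTTGAA and 1.86% an E2F-type octamer in the same stretch. The GC box was matched in all 4 windows and CCAAT in 3, and these matches describe letters and not bound sites. They are not particular to the genes called in *6KO1*. The first windows of *Lmna*, *Sun1*, *Banf1* and *Lemd3*, which were not called, also held a GC box, and those of *Sun1*, *Banf1* and *Lemd3* held CCAAT.

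Compared per kilobase of annotated exon in WT, *Lmna* had the highest mean of the 9 transcripts at 2171 ± 122.8 normalized counts per kb (SD, n = 3). *Banf1* reached 1987 ± 334, which did not differ from *Lmna* beyond its spread, *Tmpo* 1542 ± 94.1 and *Lbr* 1277 ± 170. The B-type lamins lay lower, *Lmnb1* at 949 ± 83.9 and *Lmnb2* at 512 ± 74.5. *Sun1* (340 ± 14.8), *Sun2* (335 ± 53.9) and *Lemd3* (329 ± 32.5) were the lowest and did not differ beyond their spread. *Banf1* shares 428 of its 1496 exon bases with *Eif1ad* on the other strand. Whether reads were counted by strand is not given in the sources used here, so reads of these 2 genes may be mixed. *Lbr* likewise overlaps *Dnah14* over 440 bases, or 9.24% of its exons.

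The question of the design is how the transcripts respond as KMT genes are removed in steps, and the 7 mutant conditions were each compared with the same 3 WT libraries. In *E1*, 3 of the 9 genes rose and 0 fell (*Lmna*, *Sun1* and *Sun2*), where 6.72% of all genes tested rose and 6.6% fell, and 0 were called against 4.26% of all genes. In *E1 S1S2*, 2 rose and 4 fell (all genes 19.9% and 21.9%), and 0 were called (11.8%). In *6KO1*, 3 rose and 5 fell (35.9% and 30.3%), and 4 were called (30.9%), namely *Sun2* upward and *Tmpo*, *Lmnb2* and *Lbr* downward. In *E2*, 3 rose and 1 fell (12.5% and 14.4%), and 0 were called (6.11%). In *E1E2*, 4 rose and 4 fell (16.3% and 16.9%), and *Sun2* was the 1 gene called (8.73%). In *E1E2 G9Gl*, 4 rose and 2 fell (30.9% and 28.3%), and *Sun2* alone was called (25.2%). In *6KO2*, 4 rose and 3 fell (29.5% and 25%), and *Sun2* alone was called (20.7%). With *E1*, *E1 S1S2* and *E2* at 0 called, edgeR still gave 5, 8 and 6 of the 9 genes an unadjusted p below 0.05, and DESeq2 also called 0 in each. The share of all genes below that p is not given, so these counts do not set the 9 genes apart. When only the 6 libraries of a comparison were fitted, the genes that passed against WT numbered 0 for *E1*, 2 each for *E1 S1S2* and *E2*, and 5 for *E1E2*. Shares of all genes in these smaller fits are not given either. Whether the lower counts are particular to the 9 genes was not tested. The median log2 fold change of the 9 genes was -0.40 in *6KO1* and 0.24 in *6KO2*, beside 0.061 and 0.041 over all genes. Their median absolute log2 fold change was 0.56 in *6KO1*, close to the 0.64 of all genes.

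**Figure D1:**
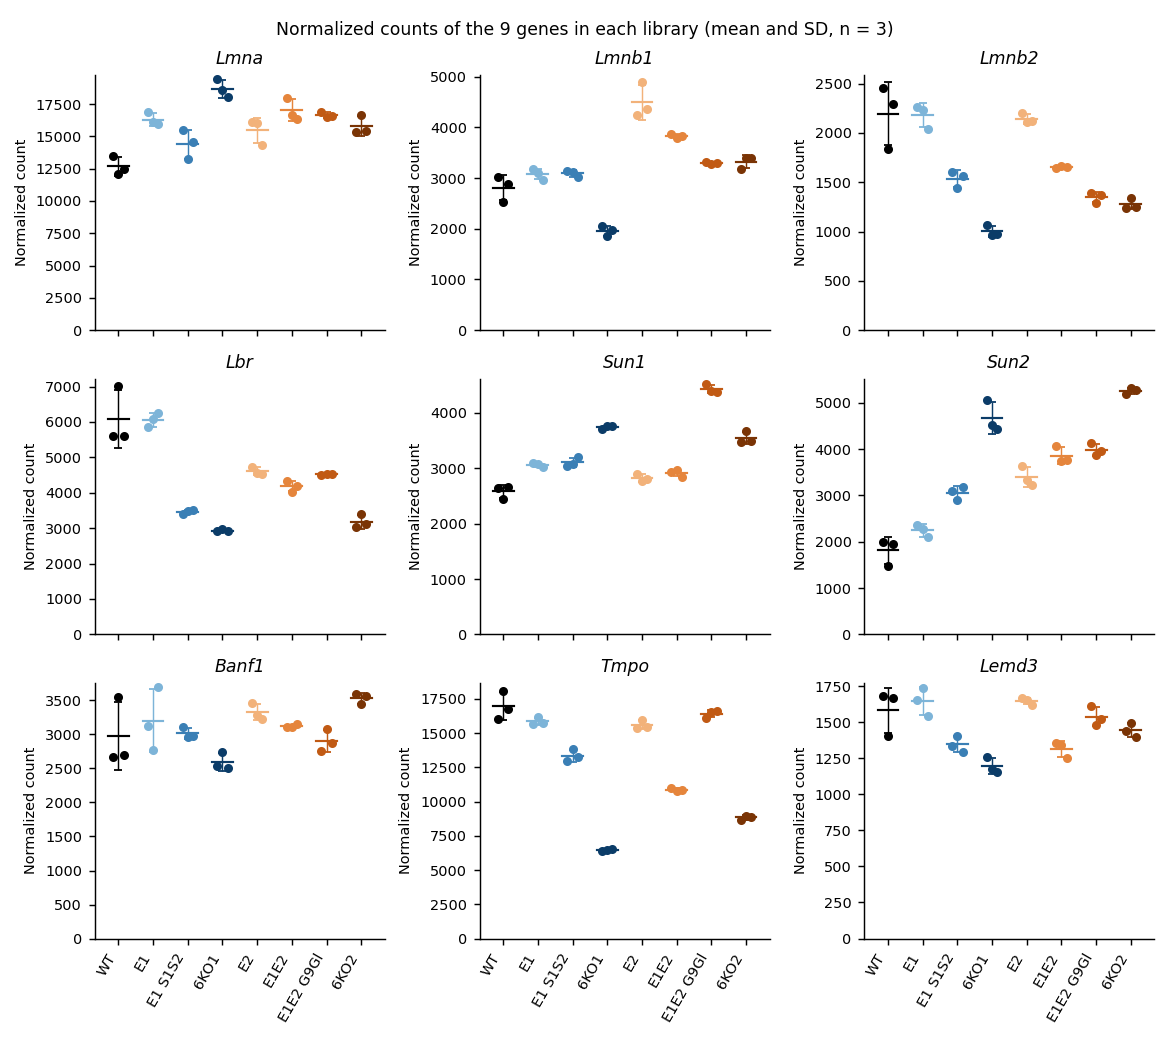
Normalized count (vertical axis, from 0, a separate scale for each gene) of the 9 genes in every library, by condition; points are libraries, horizontal lines means and bars SD (n = 3). *Sun2* lies above all WT libraries in every mutant condition, and *Tmpo* is lowest in *6KO1* (6359 to 6553), while *Banf1* and *Lemd3* overlap between most conditions.

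*Lmna* (ENSMUSG00000028063, chromosome 3, 88480147 to 88509956, minus strand), the source of the A-type lamins, was higher than WT in all 7 mutant conditions and rose in 6 of them. Its normalized counts were 13462, 12061 and 12497 in WT, 16879, 16098 and 15921 in *E1*, and 19415, 18565 and 18039 in *6KO1*. The *6KO1* libraries were the highest of all conditions and did not overlap with any other. *Lmna* rose by 0.36 ± 0.062 (log2 ± SE, adjusted p = 1.2e-04) in *E1*, by 0.56 ± 0.062 (2.9e-08) in *6KO1* and by 0.32 ± 0.062 (1.0e-04) in *6KO2*. In *E1 S1S2*, at 15463, 13223 and 14530, the WT and mutant libraries overlapped and the log2 difference of 0.18 did not pass (adjusted p = 0.015). The order of conditions from WT through *E1 S1S2*, *E2*, *6KO2*, *E1* and *E1E2 G9Gl* to *E1E2* held no neighbours whose libraries were separate.

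*Lmnb1* (ENSMUSG00000024590, chromosome 18, 56707813 to 56753424, plus strand), which encodes lamin B1, changed in opposite directions in the 2 lines with all 6 genes targeted. Normalized counts were 3014, 2533 and 2884 in WT, 2049, 1855 and 1984 in *6KO1*, and 3172, 3399 and 3389 in *6KO2*. All *6KO1* libraries were below and all *6KO2* libraries above WT. *Lmnb1* fell by 0.52 on the log2 scale in *6KO1* (adjusted p = 9.8e-08) and rose by 0.24 in the other line (adjusted p = 0.0016). The SE of each was 0.062, and the level differed between these lines by 0.76 ± 0.062 (adjusted p = 4.4e-10). The highest level was in *E2*, at 4241, 4892 and 4357, a rise of 0.68 ± 0.062 (adjusted p = 8.6e-09) in cells that were not given 4-OHT. The rises in *E1E2 G9Gl* (0.23) and *6KO2* did not pass without WT replicate 2 (log2 0.16 and 0.17, adjusted p = 0.014 and 0.011).

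*Lmnb2* (ENSMUSG00000062075, chromosome 10, 80901203 to 80918245, minus strand), which encodes lamin B2, fell in both series. It stood at 2453, 1837 and 2292 in WT, at 1070, 964 and 971 in *6KO1*, and at 1241, 1335 and 1250 in *6KO2*. Both lines lay below every WT library and did not overlap with each other. The fall was 1.13 on the log2 scale in *6KO1*, a 2.19-fold lower level (adjusted p = 8.2e-12), and 0.78 ± 0.077 in *6KO2* (adjusted p = 8.0e-09). Intermediate levels were found in *E1 S1S2* (1446 to 1609), *E1E2* (1642 to 1664) and *E1E2 G9Gl* (1288 to 1386), all lower than WT (log2 -0.51, -0.41 and -0.70, adjusted p at most 1.4e-04). With factors computed within each chromosome, described further on, the difference was -0.13 in *E1E2* and did not pass (adjusted p = 0.16), and it was -0.29 in *E1 S1S2*. *E1* and *E2* overlapped with WT, with log2 differences of -0.0086 and -0.034.

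The ratio of *Lmna* to the sum of *Lmnb1* and *Lmnb2*, in counts per kb within each library, does not depend on the scaling between libraries. It was 1.49 ± 0.10 in WT (SD, n = 3, range 1.42 to 1.61) and 3.57 ± 0.15 in *6KO1* (3.45 to 3.74), while the other conditions lay between 1.32 ± 0.087 in *E2* and 1.998 ± 0.014 in *E1E2 G9Gl*. *6KO1* stood clear of all other libraries, with a log2 difference from WT of 1.26, whereas *6KO2* at 1.91 ± 0.060 differed from WT by 0.36. Shifts of whole chromosomes enter this ratio. *Lmna*, *Lmnb1* and *Lmnb2* lie on chromosomes 3, 18 and 10, whose other genes had medians of 0.19, -0.18 and -0.66 in *6KO1*. With the factors within each chromosome described further on, these genes changed there by 0.24, -0.46 and -0.56, beside 0.56, -0.52 and -1.13 with library factors. The ratio was not recomputed with them. With 3 libraries against 3, the two-sided exact permutation test gave p = 0.1, the smallest it allows, for each of the 7 conditions (adjusted over 14 tests 0.11), and cannot reach 0.05. Transcript ratios of this kind say nothing of protein.

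**Figure D2:**
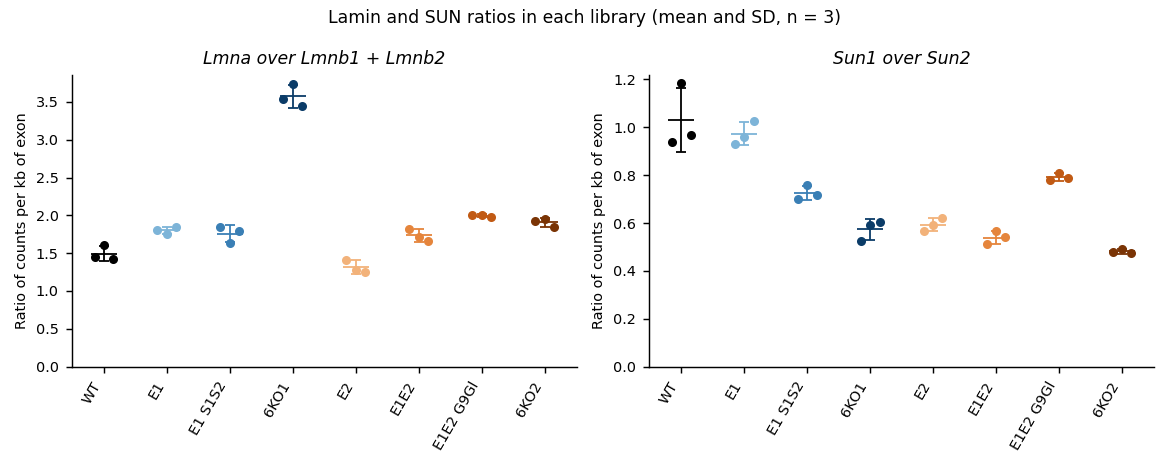
Ratio of counts per kb of exon in each library for *Lmna* over *Lmnb1* plus *Lmnb2* (left) and *Sun1* over *Sun2* (right), vertical axes from 0; points are libraries, with mean and SD (n = 3) per condition. The *6KO1* libraries lie between 3.45 and 3.74 on the left, and on the right *6KO2* is lowest at 0.473 to 0.493.

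*Lbr* (ENSMUSG00000004880, chromosome 1, 181815335 to 181843046, minus strand), which encodes the tether between B-type lamins and heterochromatin, was lowest in both lines with all 6 genes targeted. Its counts were 5614, 7016 and 5614 in WT, 2910, 2981 and 2907 in *6KO1*, and 3030, 3392 and 3107 in *6KO2*. No mutant library other than those of *E1* reached the WT range. On the log2 scale *Lbr* fell by 1.05 in *6KO1* (adjusted p = 1.5e-12), by 0.94 in *6KO2* (2.5e-11) and by 0.81 in *E1 S1S2* (4.9e-10), each with an SE of 0.066. In *E1 S1S2* the libraries held 3410, 3492 and 3504. The falls in *E2*, *E1E2* and *E1E2 G9Gl* were smaller, at 0.40, 0.54 and 0.43 on the log2 scale. *E1* libraries, at 5862, 6075 and 6255, overlapped with WT. WT replicate 2 held the highest *Lbr* count of all libraries, and without it the fall in *6KO1* was 0.94 on the log2 scale, short of a 2-fold change.

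*Tmpo* (ENSMUSG00000019961, chromosome 10, 91147571 to 91181315, minus strand), which encodes the lamin-binding LAP2 proteins, had the largest fall of the 9 genes. Normalized counts were 16047, 18084 and 16747 in WT, 6359, 6500 and 6553 in *6KO1*, and 8667, 8963 and 8896 in *6KO2*. The replicates of each mutant line lay close together and the 3 groups did not overlap. In *6KO1* the level was 2.62-fold lower, a log2 change of -1.39 ± 0.046 (adjusted p = 1.4e-17), and in *6KO2* 1.92-fold lower, at -0.94 ± 0.046 (adjusted p = 3.4e-14). *E1E2* (10753 to 10976) fell by 0.64 and *E1 S1S2* (12992 to 13809) by 0.35 on the log2 scale, whereas *E1E2 G9Gl*, at 16122, 16530 and 16593, overlapped with WT (log2 -0.047, adjusted p = 0.37). The level therefore did not follow the number of targeted genes within the second series.

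*Lemd3* (ENSMUSG00000048661, chromosome 10, 120923413 to 120979332, minus strand), which encodes MAN1, and *Banf1* (ENSMUSG00000024844, chromosome 19, 5364638 to 5367168, minus strand), which encodes BAF, varied least. *Lemd3* counts were 1678, 1401 and 1665 in WT and 1258, 1177 and 1156 in *6KO1*, a fall of 0.40 on the log2 scale (SE 0.065, adjusted p = 7.7e-06). It also fell in *E1 S1S2* (log2 -0.23, adjusted p = 0.0043, with libraries that overlapped WT) and in *E1E2* (-0.27, adjusted p = 0.0019). The fall in *E1E2* did not pass in 3 of 24 fits with a library left out (WT replicate 1, WT replicate 3 or *E1E2* replicate 3), and that in *E1 S1S2* did not in 9 (WT replicates 1 and 3, *E1 S1S2* replicates 1 and 3, any *6KO1* replicate, and *E1E2 G9Gl* replicates 2 and 3), with log2 values from -0.31 to -0.19. *Banf1* counts were 2666, 3550 and 2701 in WT, with replicate 2 apart, and 2532, 2740 and 2513 in *6KO1*, and the groups overlapped. The log2 differences from WT lay between -0.20 in *6KO1* (adjusted p = 0.056) and 0.25 in *6KO2* (adjusted p = 0.021), so *Banf1* passed in 0 of 7 comparisons. Without WT replicate 2, *Banf1* passed in *6KO2* (log2 0.39, adjusted p = 8.8e-05) and in *E2* (0.31, adjusted p = 0.0025), and *Lemd3* passed in *6KO2* (-0.21, adjusted p = 0.0022).

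*Sun2* (ENSMUSG00000042524, chromosome 15, 79724070 to 79742536, minus strand), the inner membrane component of the LINC complex, was higher than WT in all 21 mutant libraries and had the widest range of the 9 genes. Its counts were 2004, 1478 and 1959 in WT, 3645, 3338 and 3227 in *E2*, 5067, 4524 and 4441 in *6KO1*, and 5192, 5326 and 5269 in *6KO2*. Within the second series the level went from *E2* through *E1E2* (3746 to 4072) and *E1E2 G9Gl* (3880 to 4135) to *6KO2*, with the middle pair overlapping. In the first series it went from *E1* (2100 to 2372) through *E1 S1S2* (2895 to 3193) to *6KO1* without overlap. The rise over WT was 2.58-fold in *6KO1* (log2 1.37 ± 0.086, adjusted p = 1.4e-12) and 2.90-fold in *6KO2* (1.54 ± 0.086, adjusted p = 3.8e-13). It was 2.13-fold in *E1E2* (log2 1.09) and 2.20-fold in *E1E2 G9Gl* (1.14). WT replicate 2 was the lowest of all libraries. Without it the *6KO1* and *6KO2* rises were 1.24 and 1.41, the *E1E2* rise was 0.96, short of a 2-fold change, and the *E1* rise went from 0.31 (adjusted p = 0.0099) to 0.18 (adjusted p = 0.047). The *E1* rise failed the threshold in 20 of the 24 fits with a library left out.

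*Sun1* (ENSMUSG00000036817, chromosome 5, 139200637 to 139249840, plus strand), the paralogue of *Sun2*, rose in 6 of 7 conditions and by less. It was at 2642, 2454 and 2655 in WT, 3718, 3758 and 3755 in *6KO1*, and 4514, 4400 and 4373 in *E1E2 G9Gl*, where it was highest. The mutant libraries of all 7 conditions lay above WT. The rise was 0.54 ± 0.044 in *6KO1* (log2, adjusted p = 2.1e-10), 0.78 ± 0.044 in *E1E2 G9Gl* (2.8e-13) and 0.46 ± 0.044 in *6KO2* (5.7e-09). In *E2* the difference of 0.13 did not pass (adjusted p = 0.025). The rise of 0.17 in *E1E2* did not pass without WT replicate 2 (log2 0.14, adjusted p = 0.011), without *E1E2* replicate 1 or without *E1E2* replicate 2. The ratio of *Sun1* to *Sun2* per kb was 1.03 ± 0.13 in WT (range 0.940 to 1.18) and 0.973 ± 0.049 in *E1*, whose libraries overlapped (two-sided exact permutation test, p = 0.6). It was below WT in all libraries of the other 6 conditions, down to 0.573 ± 0.043 in *6KO1* and 0.481 ± 0.010 in *6KO2* (exact permutation p = 0.1 each, the smallest possible).

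In several of these clones the median change differed between chromosomes. In *6KO1*, the 538 other genes of chromosome 10 with a mean normalized count of at least 100 had a median log2 fold change of -0.66, and 82.9% of them were below 0. The 11162 genes of the other chromosomes had a median of -0.052, with 53.2% below 0. Chromosome 10, which carries *Tmpo*, *Lmnb2* and *Lemd3*, had the lowest median of the autosomes and X in *6KO1*. Its median was -0.25 in *E1 S1S2*, -0.34 in *E1E2* and -0.23 in *6KO2*, but 0.017 in *E1*, -0.083 in *E2* and -0.034 in *E1E2 G9Gl*. The last 3 are the conditions in which *Tmpo* did not pass against WT. Within 5 Mb of *Tmpo*, 43 other genes had a median of -0.93 in *6KO1*, and within 5 Mb of *Lemd3*, 27 genes had a median of -1.003. Chromosome 1, with *Lbr*, had medians of -0.27 to -0.36 in all mutants but *E1*. Chromosome 3, with *Lmna*, stood at 0.19 in *6KO1* and at -0.16 in *6KO2*, and chromosome 19, with *Banf1*, at 0.44 and 0.23. Chromosome copy number was not measured in these data, and its part was not tested.

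**Figure D3:**
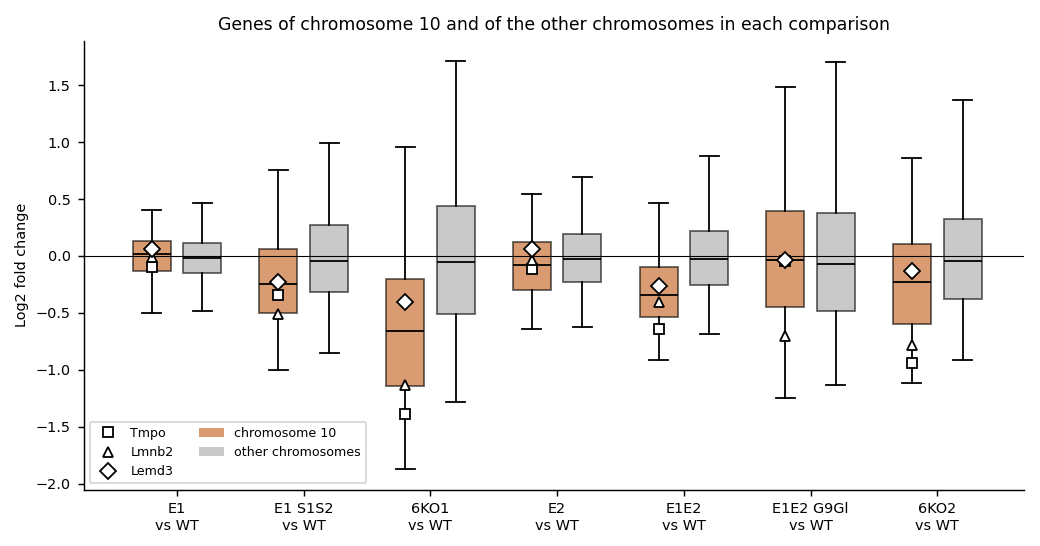
Log2 fold change against WT in each of the 7 comparisons for the 538 other genes of chromosome 10 and the 11162 genes of the other chromosomes; boxes span the quartiles with the median as a line, whiskers the central 90%, and symbols mark *Tmpo*, *Lmnb2* and *Lemd3*. The chromosome 10 median is -0.66 in *6KO1* and 0.017 in *E1*, and *Tmpo* and *Lmnb2* lie below it in both lines with all 6 genes targeted while *Lemd3* lies above it.

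The fit was therefore repeated with TMM factors computed within each chromosome, an alternative chosen after these medians had been seen. *Tmpo* still fell in *6KO1* (log2 -0.82 ± 0.050, adjusted p = 7.5e-13) and in *6KO2* (-0.75 ± 0.050, adjusted p = 7.0e-12), and so did *Lmnb2* (-0.56 ± 0.073 and -0.59 ± 0.073). *Lbr* fell by 0.80 and 0.73 on the log2 scale in the same lines, and *Sun2* rose by 1.51 and 1.63. *Lemd3* turned from a fall to 0.17 ± 0.062 in *6KO1* and no longer passed (adjusted p = 0.017). *Banf1* instead fell by 0.68 in *6KO1* (SE 0.093, adjusted p = 8.7e-07), and the rise of *Lmna* there dropped to 0.24 ± 0.071 (adjusted p = 0.0047). *Lmnb1* fell by 0.46 in *6KO1* but no longer rose in *6KO2* (log2 0.13, adjusted p = 0.11). In *6KO1*, 3 of the 9 genes rose and 5 fell under these factors, where 35.1% and 29.8% of all genes did, and *Sun2* alone was called where 29.7% of all genes were. Other falls that did not pass with these factors were those of *Tmpo* in *E1 S1S2* (adjusted p = 0.036), *Lbr* in *E2* and *E1E2 G9Gl* (0.30 and 0.022), *Lmnb2* in *E1E2* (0.16) and *Lemd3* in *E1 S1S2* and *E1E2* (0.91 and 0.90). The rises of *Sun1* in *E1E2* (log2 0.086, adjusted p = 0.11) and of *Lmnb1* in *E1E2 G9Gl* (0.22, adjusted p = 0.0105) did not pass either, and *Banf1* fell in *E1E2 G9Gl* (-0.28, adjusted p = 0.0098).

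**Figure D4:**
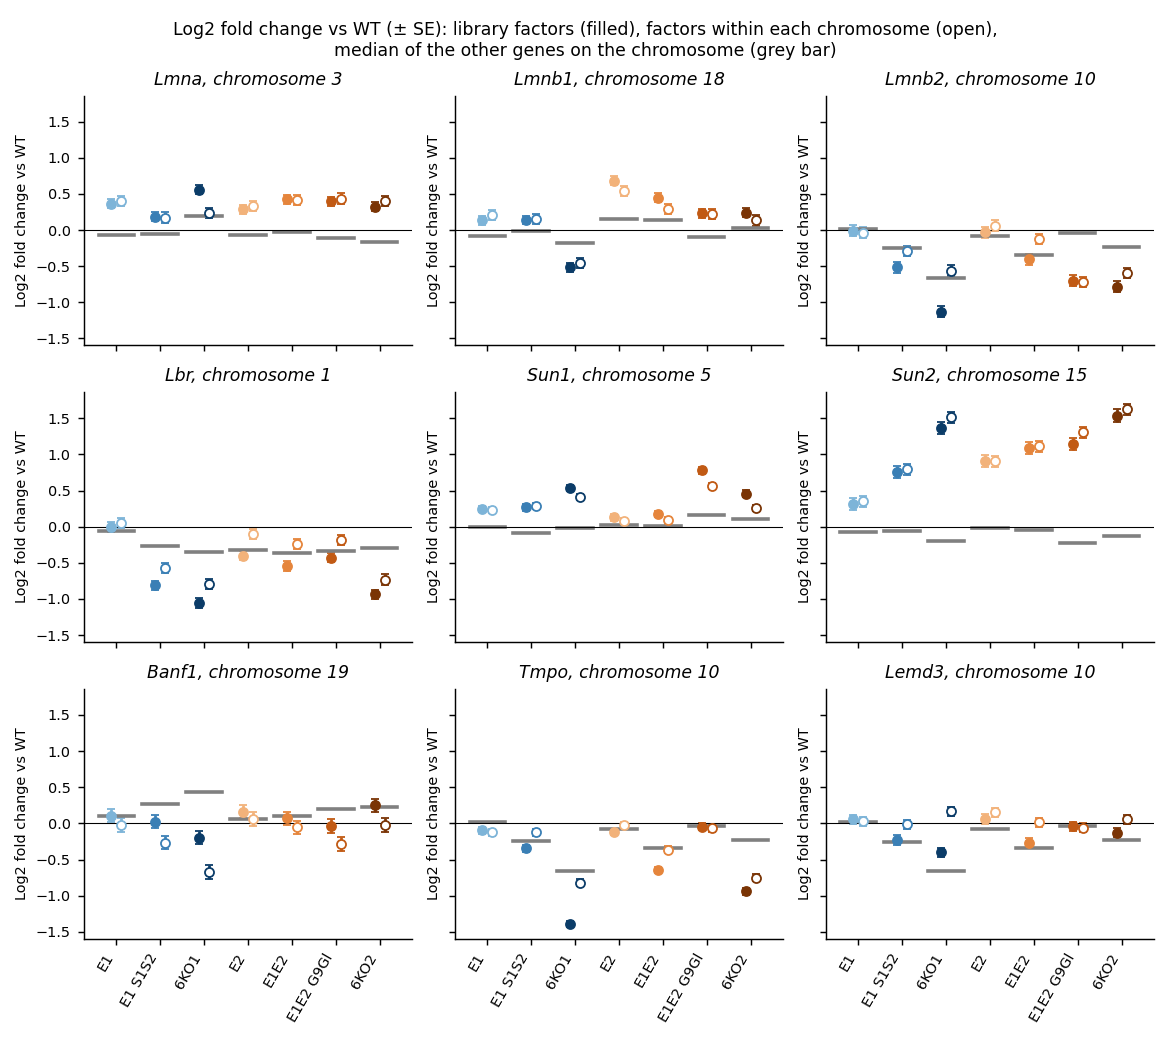
Log2 fold change against WT (vertical axis, bars SE) of the 9 genes in the 7 mutant conditions with library factors (filled points) and with factors computed within each chromosome (open points); grey bars are the median of the other genes on the same chromosome. *Sun2* lies above its chromosome median in every condition with either set of factors, whereas *Lemd3* on chromosome 10 changes sign in *6KO1*, from -0.40 to 0.17.

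Steps within the 2 series showed at which point each transcript changed. From *E1* to *E1 S1S2*, 5 of the 9 genes changed, where 33.5% of all genes did. *Lbr* made the largest of these changes, from 5862 to 6255 down to 3410 to 3504 (log2 -0.81 ± 0.066, adjusted p = 9.5e-10), and *Lmnb2*, *Lemd3* and *Tmpo* fell and *Sun2* rose with it. With factors within each chromosome, *Lbr* (-0.62), *Lmnb2* (-0.25) and *Sun2* (0.44) passed, while *Lemd3* was at -0.041 (adjusted p = 0.63) and *Tmpo* differed by less than 0.01 (adjusted p = 1). From *E1 S1S2* to *6KO1*, 7 of 9 changed (all genes 53.3%), led by *Tmpo* at -1.04 ± 0.046 (adjusted p = 4.0e-15), a 2.06-fold lower level and the only 1 of these steps past a 2-fold change. *Lmnb1* and *Lmnb2* fell at the same step by 0.66 and 0.62, while *Lmna*, *Sun1* and *Sun2* rose by 0.37, 0.27 and 0.61. With factors within each chromosome, *Tmpo* fell by 0.70 and was short of a 2-fold change, *Lmnb2* fell by 0.27 and *Sun1* rose by 0.13. *Lmna* was then at 0.065 and did not pass (adjusted p = 0.44), and *Banf1* fell by 0.41 (adjusted p = 5.9e-04). In the second series, 4 of 9 genes fell between *E2* and *E1E2* (all genes 11.9% in either direction), namely *Tmpo*, *Lmnb2*, *Lemd3* and *Lmnb1*, of which the first 3 lie on chromosome 10, whose median was -0.22 at this step. The fall of *Lmnb1* failed the threshold in 20 of 24 fits with a library left out. With factors within each chromosome *Tmpo* alone passed (log2 -0.34, adjusted p = 2.4e-05). From *E1E2* to *E1E2 G9Gl*, 5 of 9 changed (53.4%), with *Sun1* up by 0.60 ± 0.044, *Tmpo* by 0.60 ± 0.046 and *Lemd3* by 0.23, and *Lmnb1* and *Lmnb2* down (log2 -0.22 and -0.30). The chromosome 10 median was 0.26 at that step. With factors within each chromosome, *Tmpo* rose by 0.30 and *Lmnb2* fell by 0.59, while *Lemd3* (-0.071) and *Lmnb1* (-0.069, adjusted p = 0.42) did not pass. From *E1E2 G9Gl* to *6KO2*, 4 of 9 changed (43.6%). *Tmpo* fell by 0.89 and *Lbr* by 0.51 on the log2 scale, *Sun1* fell by 0.32 and *Sun2* rose by 0.40 (adjusted p at most 3.1e-04 in each), and with factors within each chromosome these 4 changes passed as well.

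The 2 lines with all 6 genes targeted were compared directly. Between *6KO2* and *6KO1*, 6 of 9 genes differed (all genes 49.2%). *Lmnb1* was 1.69-fold higher in *6KO2* (log2 0.76), and *Tmpo* (0.45 ± 0.046), *Banf1* (0.44 ± 0.091), *Lmnb2* (0.35 ± 0.078) and *Lemd3* (0.27 ± 0.065) were also higher, while *Lmna* was lower (-0.24 ± 0.062). The difference of *Lmna* did not pass without *6KO1* replicate 1, *6KO2* replicate 1 or *6KO2* replicate 3, and that of *Lemd3* did not without *6KO1* replicate 3. The median of chromosome 10 was 0.44 higher and that of chromosome 3 lower by 0.35 in the same comparison. With factors within each chromosome, *Lmnb1* (0.59, adjusted p = 3.6e-07) and *Banf1* (0.65, adjusted p = 3.0e-06) still differed, *Tmpo* (0.067, adjusted p = 0.26), *Lmnb2* (-0.034), *Lemd3* (-0.11) and *Lmna* (0.16) did not pass, and *Sun1* was lower (-0.15, adjusted p = 0.0041). *Lbr*, *Sun1* and *Sun2* did not pass with library factors, with log2 differences of 0.11, -0.077 and 0.17.

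The parental line and the *Eset2*-mutant clone were the lines measured with and without 4-OHT, and the difference between the 2 effects was tested as an interaction. Of the 9 genes, 3 passed (all genes 8.89%). *Tmpo* changed by -0.097 between WT and *E1* and by -0.52 between *E2* and *E1E2*. For *Lmnb1* these effects were 0.13 and -0.23, and for *Lemd3* 0.058 and -0.32. *Setdb1* counts, taken over the whole gene, did not change in the second pair, so the treatment of that pair could not be checked from them. Only the floxed exons are removed by 4-OHT, and the authors assessed the deletion by RT-qPCR of those exons or by western blot. The median interaction over chromosome 10 genes was -0.21, and with factors within each chromosome *Lmnb1* alone passed (log2 -0.46, adjusted p = 0.0028).

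For the 3 genes with the widest range of condition means, the genes with the most similar pattern over the 24 libraries are given as a description, by Pearson's r of log2 CPM among 11762 genes. Libraries of one clone share its history, so the 24 points are not independent. *Sun2* was closest to *St3gal2* (r = 0.97, log2 1.45 in *6KO1*), *Dctn1* (0.97) and *Zfand3* (0.96). *Tmpo* was closest to *Lta4h* (0.99, log2 -1.39 in *6KO1*), *Insig1* (0.99, log2 -2.89), which encodes a protein of the endoplasmic reticulum that restrains sterol synthesis, and *Parpbp* (0.98). *Lta4h* and *Parpbp* lie on chromosome 10 as *Tmpo* does, whereas *Insig1* lies on chromosome 5. *Lmnb1* was closest to *Afg3l1* (0.94), *Heatr5a* (0.93) and *Ctnna1* (0.92), the last of which lies on chromosome 18 with it.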

How the data were processed

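RNA from 24 MEF cultures was sequenced as paired reads from stranded total RNA libraries. Per the labels and methods, the authors trimmed reads with cutadapt 1.8.1, aligned them to GRCm38 with STAR 2.5.2b and used TEtranscripts to assign reads to genes and repeats. The deposited values are whole-number counts per gene, not normalized; trimming, alignment and counting were not repeated. Gene rows numbered 47937 and repeat rows 1445. A further 1 row was malformed and left out, and 0 columns lacked a sample. Symbols, positions and exon lengths came from GENCODE M21 for 47310 gene identifiers. Groups and replicate numbers came from the sample labels. Depth was 24736829 to 37419071 counts per library. Replicates are described as biological, so p-values measure the spread between cultures of 1 clone.

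edgeR 4.0.16 (limma 3.58.1, R 4.3.3) was run with filterByExpr, TMM factors and the quasi-likelihood test on all 24 libraries with 1 coefficient per condition, leaving 18565 genes. There were 7 comparisons with WT, which share the WT libraries, 6 others and the interaction. Ratios were compared by two-sided exact permutation tests. On simulated counts for *6KO1* against WT among 18565 genes, edgeR passed 65 of 100 genes changed by 0.5 and 99 of 100 changed by 1.5 on the log2 scale, and 2 unchanged genes. Only these genes were changed in the simulation, with no shift of a whole chromosome and no library set apart. Its rates therefore need not hold for the comparisons here. The 9 genes and all gene lists were chosen with earlier results of these data known. Every one of the 9 genes is named, and from each list at most the 4 genes with the largest changes in *6KO1* among those that passed there. Alternatives were DESeq2 1.42.0, RLE factors, other low-count filters, only the 6 libraries compared, a replicate block, factors from genes and repeats, TMM factors within each chromosome of at least 200 genes tested (added after seeing the data), and each library left out. Motifs were searched in RefSeq promoter windows (GRCm38.p6). Figures were drawn with matplotlib 3.10.9.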

Additional observations from a re-analysis of the deposited data

Results flagged for a closer look

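For 3 of the 9 genes the effect of 4-OHT differed between the *Eset2*-mutant clone and the parental line by edgeR's test of the interaction. With 4-OHT, *Tmpo* fell in the *Eset2*-mutant clone and did not pass in the parental line. Its interaction was -0.43 ± 0.064 (log2 ± SE, adjusted p = 4.5e-05). The interaction was -0.36 ± 0.087 for *Lmnb1* (adjusted p = 0.0051) and -0.38 ± 0.091 for *Lemd3* (adjusted p = 0.0052). With TMM factors within each chromosome it was -0.22 for *Tmpo* (adjusted p = 0.041), -0.17 for *Lemd3* (adjusted p = 0.23) and -0.46 for *Lmnb1* (adjusted p = 0.0028).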

How the results depend on the processing

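Of 936 log2 fold changes of the 9 genes under alternatives that keep all replicates, 841 kept direction and side of the threshold, 47 no longer passed, 21 newly passed and 27 reversed. With a library left out, 2693 of 2808 kept both, 70 no longer passed, 17 newly passed and 28 reversed. Counts of genes stayed within 1.5 times in 196 of 208 cases. The cause of the others was not tested.

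With only the 6 libraries compared, the genes that passed against WT numbered 0 for *E1* (3 in the fit to all libraries), 2 for *E1 S1S2* (6), 2 for *E2* (4) and 5 for *E1E2* (8), and *Lbr* in *E1* was at 0.0089. With TMM factors within each chromosome, 1 gene was called in *6KO1* (4 with library factors) and 0 in *6KO1* against *E1 S1S2* (1). The number that passed was 5 in *E1E2* (8), 3 in *E1 S1S2* against *E1* (5), 1 in *E1E2* against *E2* (4), 3 in *E1E2 G9Gl* against *E1E2* (5) and 3 in *6KO2* against *6KO1* (6). Except for *6KO1* against WT with these factors, shares of all genes under the alternatives in this part are not given. Log2 values that reversed with these factors were *Lbr* 0.054 and *Banf1* -0.023 in *E1*, *Banf1* -0.27 in *E1 S1S2*, *Lemd3* 0.17 in *6KO1*, *Lmnb2* 0.062 in *E2*, *Banf1* -0.055 and *Lemd3* 0.013 in *E1E2*, *Banf1* -0.026 and *Lemd3* 0.056 in *6KO2*, *Lmnb1* -0.056 in *E1 S1S2* against *E1*, *Lemd3* 0.18 in *6KO1* against *E1 S1S2*, *Lmna* 0.020 and *Lemd3* -0.071 in *E1E2 G9Gl* against *E1E2*, *Lmnb1* -0.085, *Lmnb2* 0.13 and *Lemd3* 0.11 in *6KO2* against *E1E2 G9Gl*, and *Lmna* 0.16, *Lmnb2* -0.034 and *Lemd3* -0.11 in *6KO2* against *6KO1*. With genes above a mean of 100 normalized counts, 3 genes passed in *E1E2 G9Gl* against *E1E2* (5), and *Banf1* (0.029), *Tmpo* (0.014) and *Lemd3* (0.018) in *E1E2 G9Gl* and *Lmna* (0.011) in *E1E2 G9Gl* against *E1E2* reversed. *Lmnb1* in *6KO2* against *E1E2 G9Gl* was at -0.018 with DESeq2, -0.017 with RLE factors and -0.0092 with that filter. Without exon lengths the log2 difference of the lamin ratio was 0.50 in *E1E2 G9Gl* (0.42) and 0.44 in *6KO2* (0.36). DESeq2 passed 5 LINC and torsin genes in *6KO2* (3) and 1 nuclear pore gene in *E1* (0).

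With each library left out, the number called in *E1E2* was 0 to 1 (0 without WT replicate 2) and the number that passed in *E1E2 G9Gl* against *E1E2* 3 to 5 (3 without *E1E2* replicate 3 or any 1 of the *E1E2 G9Gl* libraries). Ranges that crossed 0 were, in *E1*, *Lmnb2* -0.12 to 0.079, *Lbr* -0.058 to 0.11, *Banf1* -0.010 to 0.26, *Lemd3* -0.022 to 0.10 and the *Sun1* to *Sun2* ratio -0.14 to 0.029, in *E2*, *Lmnb2* -0.15 to 0.053 and *Lemd3* -0.021 to 0.10, for *Banf1*, -0.048 to 0.17 in *E1 S1S2*, -0.0033 to 0.22 in *E1E2* and -0.11 to 0.11 in *E1E2 G9Gl*, for *Lemd3* in *E1E2 G9Gl* -0.12 to 0.0034, in *E1 S1S2* against *E1*, *Lmnb1* -0.021 to 0.033, *Sun1* -0.0013 to 0.047 and *Banf1* -0.18 to 0.035, and *Lmna* -0.058 to 0.0097 in *E1E2 G9Gl* against *E1E2* and *Lmnb1* -0.015 to 0.041 in *6KO2* against *E1E2 G9Gl*.

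The replicate numbers did not pair the libraries, since correlations of same-numbered deviations ranged from -0.29 to 0.24. With the replicate block the number that passed was 7 in *E1 S1S2* (6), where *Lmna* now passed (log2 0.18, adjusted p = 0.0075), and 3 in *E1E2* against *E2* (4), where *Lmnb1* no longer passed (adjusted p = 0.012), and the replicate block changed no other count. Each of the 9 genes had at least 993 counts in every library, and with 3 libraries per condition the spread between replicates sets the errors given.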

Other observations

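Other genes of the nuclear envelope were described by lists. Of 8 further inner nuclear membrane genes, 3 rose and 0 fell in *6KO1* (all genes 35.9% and 30.3%) and 5 rose and 0 fell in *6KO2* (29.5% and 25%). *Tmem43*, which encodes an inner membrane protein that binds lamins, went from 1254 ± 65.2 normalized counts in WT (SD, n = 3) to between 2577 and 2894 in *6KO1* (log2 1.14 ± 0.057, edgeR adjusted p = 2.8e-14), and rose by 0.83 in *6KO2*. *Nrm* (nurim) and *Tor1aip1* (the torsin cofactor LAP1) rose by 0.79 and 0.55 in *6KO1*. The median log2 fold change of the list was 0.22 in *6KO1*, beside 0.061 over all genes. Of 8 tested genes among 10 LINC complex and torsin genes, 3 rose and 1 fell in *6KO1* (all genes 35.9% and 30.3%) and 2 rose and 1 fell in *6KO2* (29.5% and 25%). The nesprin genes *Syne3* and *Syne2*, whose proteins bind SUN proteins, rose by 1.08 ± 0.091 and 0.92 ± 0.10 in *6KO1* and by 1.08 and 0.83 in *6KO2*. *Tor1b* rose by 0.50 and *Tor1aip2* fell by 0.22 in *6KO1*. The median of this list was 0.056 in *6KO1*.

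Of 9 nuclear pore genes, 2 rose and 7 fell in *6KO1* (all genes 35.9% and 30.3%), and 1 rose and 6 fell in *6KO2* (29.5% and 25%). Their median log2 fold change was -0.41 and -0.33. *Nup107*, a subunit of the pore's Y-shaped scaffold complex, went from 4948 ± 240 normalized counts in WT to between 1663 and 1768 in *6KO1* (log2 -1.53 ± 0.048, adjusted p = 4.0e-18) and fell by 0.79 in *6KO2*. The values of all lists in this part were taken with library factors, so shifts of whole chromosomes are not removed from them. *Nup133*, of the same complex, and *Ndc1*, a membrane anchor of the pore, fell by 0.79 and 0.78 in *6KO1*. *Nup210* rose by 1.54 from a mean of 5.7 normalized counts. Of 5 lamin processing genes, *Rce1*, a protease of the prenylation pathway, rose by 0.57 in *6KO1* and *Zmpste24* and *Fntb* fell by 0.27 and 0.23 (all genes 35.9% and 30.3%), and 3 rose and 0 fell in *6KO2* (29.5% and 25%). Of 10 proliferation genes, 2 rose and 6 fell in *6KO1* (all genes 35.9% and 30.3%), with *Cdk1* at -1.11, *Top2a* at -0.66, *Ccnb1* at -0.46 and *Aurkb* at -0.35, and 0 rose and 6 fell in *6KO2* (29.5% and 25%). Their part in the values of the lamins was not tested. Of 8 fibroblast markers, 0 rose and 8 fell in *6KO1*, led by *Thy1*, *Dcn* and *Pdgfra*, which were at most at 0.879, 1.74 and 5.87 normalized counts there, and *Col1a1* (log2 -1.76). In *6KO2* 6 fell and *Dcn* rose (log2 1.92). Percentages of all genes that changed in these comparisons are given above.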
